A study of Drosophila melanogaster with 6 samples.

Results

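The potassium channel genes described here are 10 genes of Drosophila melanogaster that encode the pore-forming subunits of voltage-gated and calcium-activated potassium channels: Sh, Shab, Shal, Shaw, eag, sei, Elk, slo, SK and KCNQ. They were found by matching the FlyBase gene identifiers of the count table to symbols. Of the 10 genes, 9 were matched to one of the 14869 identifiers in the table. Those 9 all passed the filter on low counts and stand among 10029 genes tested. Sh, with 1 to 5 counts in each fat body library, passed that filter through its brain counts alone. Shab (chromosome arm 3L) is not analysed here because no identifier in the table matched it. In all, 1337 identifiers had no symbol, so a row for Shab under an older identifier remains possible. By chromosome arm, Sh, eag and SK are on X, Shaw on 2L, Shal on 3L, slo on 3R, and sei, Elk and KCNQ on 2R.

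Polyadenylated RNA of male wandering larvae of the third instar, reared at 25 °C, was sequenced in 6 libraries. The larval brain without the ventral nerve cord gave 2 libraries (30 larvae each), fat bodies of larvae reared on food with 25 µM 4-hydroxytamoxifen (4-HT) gave 2 (18 larvae each), and fat bodies of larvae on food without it gave 2 controls (18 larvae each). Every library, controls included, pooled equal numbers of 6 transgenic lines. These carry, on a y,w background and at the landing site ZH51C, the construct FL.hsp70P-Dam[4-HT-intein@L127C] alone or with PC, H1, HP1, MRG15 or BRM fused to Dam, a DNA methyltransferase interrupted by an intein whose splicing 4-HT induces, under the hsp70 promoter. A library is therefore a mean over lines and larvae, and no library of larvae without a transgene was part of the comparisons. The design states 2 biological replicates per group and not how their larvae were separated, so p-values measure the spread between these pools. With fat body as the reference tissue, the brain comparison sets channel transcript levels in brain beside those in fat body. The 4-HT comparison sets fat body with the inducer beside fat body without it. Effects of 4-HT itself and of the Dam proteins whose splicing it induces cannot be told apart in that comparison.

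Potassium channels let potassium ions leave the cell and so bring the membrane back towards rest after an action potential. The Shaker-related subunits (Sh, Shab, Shal, Shaw) open on depolarization and differ in how fast they open and inactivate. The ether-a-go-go family (eag, sei, Elk) and KCNQ open more slowly or set excitability near rest, and slo and SK couple the membrane to intracellular calcium. Some of the genes were named for the leg shaking or temperature-sensitive paralysis of mutant flies. The fat body, which stores nutrients and secretes serum proteins, is not an electrically signalling tissue.

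Of the 9 genes, 6 were higher in brain than in control fat body: Sh, Shal, Shaw, sei, Elk and slo, by 3.34 to 7.46 on the log2 scale. None was lower, and eag, SK and KCNQ did not pass the test. Sh, at the top of that range, passed the filter through brain alone, so its direction was fixed in advance. A gene was called when its p from edgeR's quasi-likelihood test, adjusted by Benjamini-Hochberg across the 10029 genes, was under 0.05, and by that rule 35.5% of all genes were higher in brain and 34.5% lower. The median log2 fold change was 3.50 over the 9 genes and 0.11 over all genes tested. With 4-HT, none of the 9 genes was called. In bulk tissue, fewer cells of a type and less RNA per cell cannot be told apart.

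Summed over genes, brain held 20687696 and 26530280 counts, fat body with 4-HT 47054569 and 65802288, and control fat body 25860088 and 50905534. Levels are given as CPM, counts scaled to a common library size after TMM normalization, whose factors were 2.88 and 3.05 in brain, 0.578 and 0.614 with 4-HT, and 0.586 and 0.547 in controls. Of the marker lists, 13 of 14 neuron markers (all but Syt1) and 8 of 8 neuroblast markers were higher in brain, and 9 of 9 fat body markers were lower. The glia markers were mixed, with 6 higher in brain, 2 lower and 2 not called of 10, and summed to 610 and 518 CPM in brain, 602 and 690 CPM with 4-HT, and 476 and 574 CPM in controls. The 9 fat body markers took 0.111% and 0.160% of the counts in brain, against 48.9% to 53.7% in the fat body libraries. The neuronal vesicle gene nSyb had 66.0 and 63.0 CPM in brain, 0.147 CPM and no count with 4-HT, and 0.0660 and 0.0718 CPM in controls. Salivary gland markers summed to 111 and 43.0 CPM in brain, 3.83 CPM in each 4-HT library, 2006 CPM in control replicate 1 and 3.88 CPM in control replicate 2.

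**Figure D1:**
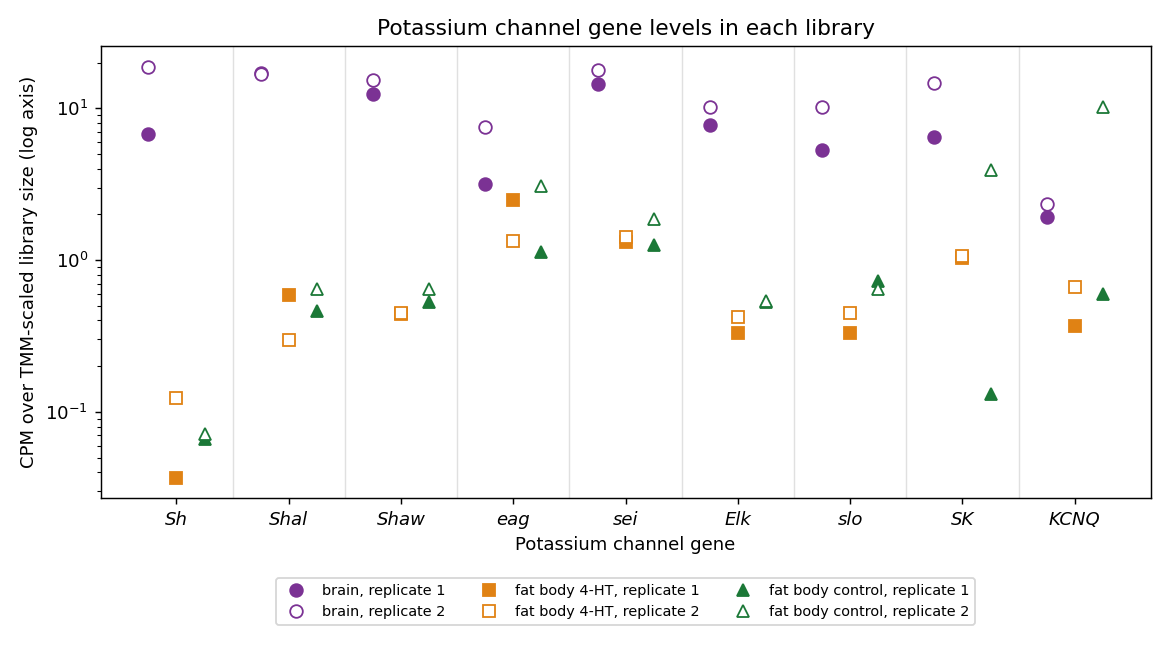
Level of each of the 9 potassium channel genes in each of the 6 libraries (CPM over TMM-scaled library size, log axis), with brain left, 4-HT fat body in the middle and control fat body right for each gene. For 8 genes both brain points lie above both control points, and KCNQ is the exception, with 10.3 CPM in control replicate 2.

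Among the Shaker-related genes, Sh encodes the fast-inactivating channel after which the family is named. Sh had 6.77 and 18.8 CPM in brain (403 and 1522 counts), 0.0368 and 0.124 CPM with 4-HT (1 and 5 counts), and 0.0660 and 0.0718 CPM in control fat body (1 and 2 counts). The brain libraries differed 2.78-fold from each other and both stood far above every fat body library. Because control fat body held 3 counts in all, the fold is given as a ratio of scaled counts, 197 with a 95% exact counting interval of 67.2 to 954. The fitted log2 fold change of 7.46 ± 0.81 (SE) depends on the prior count (edgeR adjusted p = 2.36e-04).

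Shal encodes the main A-type channel of neuronal cell bodies and dendrites. Its level was 17.1 and 16.8 CPM in brain, 0.589 and 0.297 CPM with 4-HT, and 0.462 and 0.646 CPM in control fat body. The brain replicates were nearly equal, and the groups of brain and control fat body lay apart by 4.88 ± 0.35 on the log2 scale (edgeR adjusted p = 3.74e-05). Shaw encodes a non-inactivating channel of the Kv3 type with weak voltage dependence. It had 12.4 and 15.3 CPM in brain, 0.441 and 0.445 CPM with 4-HT, and 0.528 and 0.646 CPM in control fat body. The difference of brain over control was 4.53 ± 0.27 on the log2 scale (edgeR adjusted p = 1.73e-05), and Shaw had 1978 counts over the brain libraries against 26 over the controls.

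In the ether-a-go-go family, sei encodes the fly's erg-type channel, the relative of human HERG, and Elk an eag-like channel. The level of sei was 14.5 and 17.8 CPM in brain, 1.32 and 1.41 CPM with 4-HT, and 1.25 and 1.87 CPM in control fat body. Elk had 7.74 and 10.2 CPM in brain, 0.331 and 0.420 CPM with 4-HT, and 0.528 and 0.538 CPM in control fat body. Both genes were higher in brain than in control fat body without overlap, sei by 3.34 ± 0.26 (edgeR adjusted p = 5.82e-05) and Elk by 4.07 ± 0.32 on the log2 scale (adjusted p = 5.65e-05).

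The gene eag, the founding member of that family, did not pass the test. It had 3.19 and 7.49 CPM in brain, 2.50 and 1.34 CPM with 4-HT, and 1.12 and 3.09 CPM in control fat body. The lower brain library lay only just above the higher control library, and the log2 fold change of 1.31 ± 0.62 was not called (edgeR adjusted p = 0.101). Without control replicate 2 it was 2.26 and called (adjusted p = 0.0421), and without control replicate 1 it was 0.81 (adjusted p = 0.303). Among neuron markers, elav had 204 and 245 CPM in brain, 2.28 and 1.19 CPM with 4-HT, and 1.12 and 2.58 CPM in control fat body. The marker nSyb was near the floor in every fat body library. The 14 neuron markers summed to 1280 and 1551 CPM in brain, 732 and 637 CPM with 4-HT, and 582 and 651 CPM in control fat body. Most of that sum in controls was Syt1, which was lower in brain. Muscle markers summed to 687 and 294 CPM with 4-HT, and 322 and 637 CPM in control fat body. The part of neuronal or muscle RNA in the eag values was not tested.

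Of the calcium-activated channels, slo encodes the large-conductance BK channel, opened by calcium and voltage together, and SK the small-conductance channel, opened by calcium through calmodulin. The level of slo was 5.32 and 10.2 CPM in brain, 0.331 and 0.445 CPM with 4-HT, and 0.726 and 0.646 CPM in control fat body. It was higher in brain by 3.50 ± 0.43 on the log2 scale (edgeR adjusted p = 4.36e-04), with all brain values above all fat body values. SK had 6.43 and 14.7 CPM in brain (383 and 1189 counts), 1.03 and 1.06 CPM with 4-HT (28 and 43 counts), and 0.132 and 3.95 CPM in control fat body (2 and 110 counts). The control libraries differed 29.9-fold in SK, against a 5.18-fold difference between the mean CPM of brain and that of controls. The log2 fold change of SK, 2.28 ± 0.98, was not called (edgeR adjusted p = 0.0765). It was 6.30 without control replicate 2 (adjusted p = 0.00164), 1.44 without control replicate 1 (adjusted p = 0.0508) and 2.38 by DESeq2, which called it (adjusted p = 0.0369). Over 14 alternatives the adjusted p of SK lay between 0.00164 and 0.327.

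KCNQ encodes the M-type channel that limits repetitive firing. It had 1.91 and 2.33 CPM in brain (114 and 188 counts), 0.368 and 0.668 CPM with 4-HT (10 and 27 counts), and 0.594 and 10.3 CPM in control fat body (9 and 286 counts). Control replicate 2 was the highest of the 6 libraries, while the other 3 fat body libraries were all below both brain libraries. The log2 fold change of brain over control was -1.38 ± 1.01 (edgeR adjusted p = 0.258), and its sign turned with single choices. It was 1.84 without control replicate 2 (adjusted p = 0.0408), -2.25 without control replicate 1 (adjusted p = 0.00137) and 1.05 when libraries were scaled by their totals alone (adjusted p = 0.351). Among neuron markers, nSyb was at 0.0718 CPM in control replicate 2 and 0.0660 CPM in control replicate 1, and elav at 2.58 and 1.12 CPM. The 14 markers summed to 651 and 582 CPM in these libraries, with none at 0, but Syt1 alone averaged 578 CPM of that in controls. Their part in the KCNQ values was not tested.

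**Figure D2:**
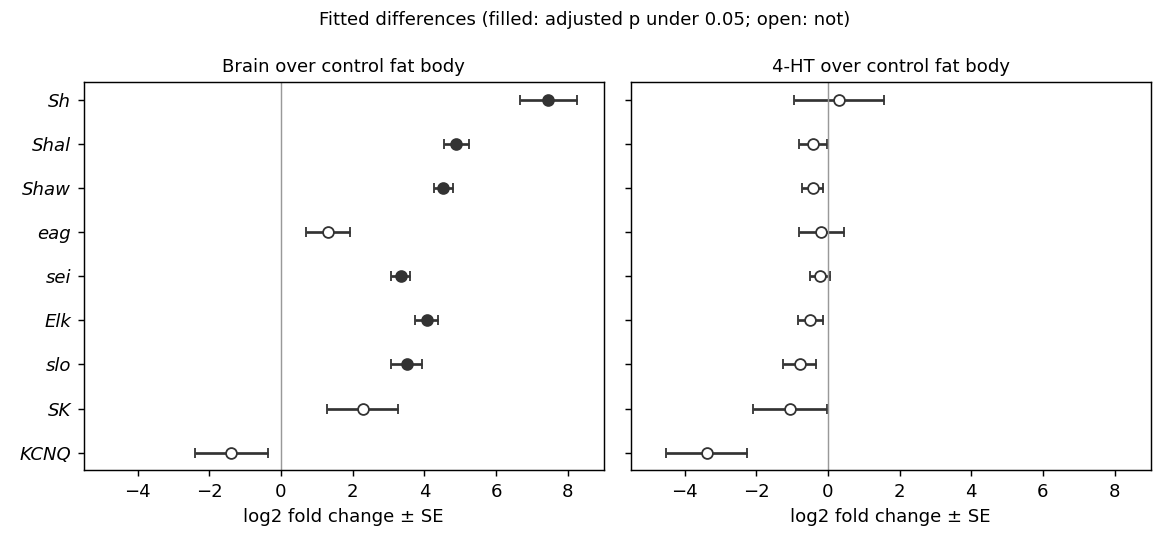
Fitted log2 fold changes with standard errors (edgeR, n = 2 libraries per group), brain over control fat body on the left and 4-HT over control fat body on the right. Filled points passed an adjusted p of 0.05: 6 of 9 genes in brain and 0 of 9 with 4-HT.

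Over the set, both brain libraries lay above both control libraries for 8 of 9 genes, all but KCNQ, and 45.2% of all tested genes did so. The 6 calls, all higher, were made in each of the 14 alternatives run. The summed level of the 9 genes was 75.3 and 114 CPM in brain, 6.95 and 6.21 CPM with 4-HT, and 5.41 and 21.7 CPM in control fat body. In control replicate 2, KCNQ alone made up 10.3 of those 21.7 CPM. Without control replicate 2 the log2 fold changes of the 9 genes ran from 1.84 (KCNQ) to 7.55 (Sh). Without control replicate 1 they ran from -2.25 (KCNQ) to 7.44 (Sh). Scaling matters for the size of these differences: over all genes the median difference on the log2 scale was 0.11 under TMM, 0.44 under upper quartile scaling and 2.49 when only library totals were used. Under library totals 8 of the 9 genes were called higher, all but KCNQ, and the split over all genes was 7574 higher and 1183 lower, against 3558 higher and 3460 lower under TMM.

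The authors' deposited table gave log2 fold changes for brain over control fat body of 7.57 for Sh, 4.97 for Shal, 4.60 for Shaw, 3.41 for sei, 4.12 for Elk and 3.54 for slo. In the authors' deposited table the adjusted p was 0.512 for eag, 0.217 for SK and 0.663 for KCNQ. The same 6 genes were under 0.05 in the authors' deposited table and in the edgeR fit.

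Fat body with 4-HT was compared with control fat body, a contrast that covers both the inducer and the Dam proteins whose splicing it induces. None of the 9 genes was called by edgeR, nor was any of the 10029 genes (0.00%). At an unadjusted p under 0.05 there were 596 genes, 1 of them among the 9 (KCNQ), and DESeq2 called 44 genes and none of the 9. The median log2 fold change was -0.43 over the 9 genes and 0.01 over all genes. Levels were low: the 9 genes summed to 189 and 251 counts with 4-HT and 82 and 605 counts in controls.

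Shaw, Elk and slo were lower in both 4-HT libraries than in both controls, and 30.0% of all tested genes did not overlap between these groups in one direction or the other. Their log2 fold changes were -0.43 ± 0.30 for Shaw, -0.49 ± 0.35 for Elk and -0.79 ± 0.47 for slo, with edgeR adjusted p of 0.933, 0.934 and 0.904. For Sh the ratio of scaled counts, 4-HT over control, was 1.27 with a 95% exact counting interval of 0.272 to 7.86, on 6 and 3 counts. Shal, eag and sei overlapped between the groups, with log2 fold changes of -0.41 ± 0.40, -0.18 ± 0.63 and -0.22 ± 0.27. In SK both 4-HT libraries lay between the controls, and the log2 fold change was -1.05 ± 1.03 (edgeR adjusted p = 0.953), or 2.97 without control replicate 2 (adjusted p = 0.394).

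For KCNQ the log2 fold change of 4-HT over control was -3.38 ± 1.14 (edgeR adjusted p = 0.835). Without control replicate 1 it was -4.27 and called (adjusted p = 0.0372), and without control replicate 2 it was -0.16 (adjusted p = 0.951). Over 14 alternatives the adjusted p of KCNQ lay between 0.0372 and 1. The authors' deposited table gave an adjusted p of 1 for each of the 9 genes in this comparison. The comparisons of brain and of 4-HT share the same control libraries, so control replicate 2 enters the SK and KCNQ values of both.

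Levels of different genes can be set side by side only per length, and for that CPM was divided by the kilobases of annotated exon sequence in the release 6 annotation. In brain the order of level per kilobase was sei (4.92 ± 0.722, SD, n = 2), Shal (3.68 ± 0.0391), Shaw (2.77 ± 0.417), Elk (1.68 ± 0.329), SK (0.971 ± 0.538), slo (0.764 ± 0.339), Sh (0.561 ± 0.374), KCNQ (0.547 ± 0.0752) and eag (0.502 ± 0.286). The libraries of sei, Shal, Shaw, Elk and SK did not overlap from one gene to the next in that order, whereas each neighbouring pair from SK down to eag overlapped. By this measure sei, Shal and Shaw made up 31.0%, 26.0% and 17.4% of the summed level in brain replicate 1, and 29.3%, 19.7% and 16.5% in brain replicate 2.

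Which exons are counted changes the place of Sh and Shaw. Sh has 17 annotated transcripts and 22.8 kb of exon sequence in all, but its canonical transcript is 2781 bases long. By canonical transcript length, an alternative chosen after seeing the data, the brain order was Shaw (5.71), sei (5.05), Sh (4.60), Shal (4.13), Elk (1.73), SK (1.31), slo (0.953), KCNQ (0.650) and eag (0.562). Sh moved from place 7 to place 3, and KCNQ and eag were last by either length. In fat body, the level of sei per kilobase of exon was 0.404 and 0.430 with 4-HT, the highest of the 9 genes there, and 0.383 and 0.569 in controls. Sh had the lowest group mean by either length, although by canonical length SK (0.0164) was below Sh (0.0237) in control replicate 1. Per library, Sh was at 0.00161 and 0.00542 CPM per kilobase of exon with 4-HT and 0.00289 and 0.00315 in controls.

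**Figure D3:**
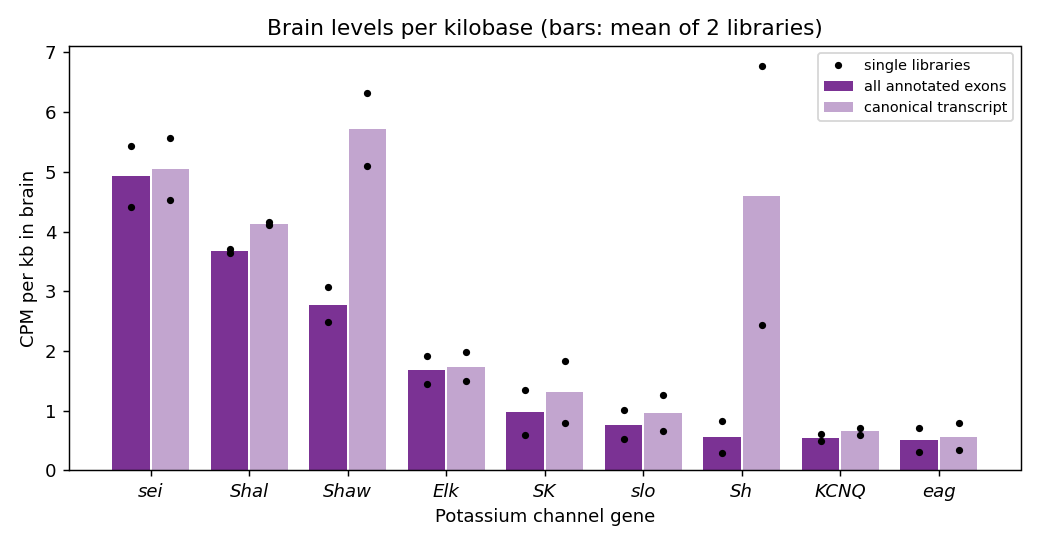
Brain level of each gene in CPM per kilobase, using all annotated exons (dark bars) or the canonical transcript (light bars); bars are means of 2 libraries and dots single libraries. By exon length sei leads with 4.92 and eag is lowest with 0.502, and Sh stands at 0.561 or 4.60 depending on the length used.

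Replicate spread was not even over the genes. Brain replicate 2 over replicate 1 was 2.78-fold for Sh, 2.35-fold for eag, 2.29-fold for SK and 1.91-fold for slo, the 4 genes with over 10 kb of exon sequence (22.8, 10.6, 10.9 and 10.2 kb). For Elk, Shaw, sei, KCNQ and Shal, with 5.35, 5.00, 3.28, 3.88 and 4.61 kb, it was 1.32, 1.24, 1.23, 1.22 and 0.985. Over all tested genes with an exon length, the median of the same brain ratio was 0.901 below 2 kb, 0.992 from 2 to 5 kb, 1.10 from 5 to 10 kb and 1.30 from 10 kb on, with a middle range of 1.15 to 1.78 in the longest class. The 4 long channel genes thus lay above the middle range of genes of their length.

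Replicate ratios also ran with length in fat body. Longer genes had higher ratios in controls, as in brain, and lower ratios with 4-HT, the opposite direction. In genes of 10 kb and more, replicate 2 over replicate 1 had a median of 0.692 with 4-HT and 1.48 in controls. The ratio for eag was 0.534 with 4-HT and 2.75 in controls, in the direction of its length class in both groups. The other genes of over 10 kb did not follow it throughout: the ratio was 3.36 with 4-HT and 1.09 in controls for Sh, on 1 to 5 counts per library, and 1.34 with 4-HT and 0.890 in controls for slo. For SK it was 1.03 with 4-HT, above the middle range of 0.559 to 0.852. SK and KCNQ in controls, at 29.9 and 17.3, lay far outside the middle range of their length classes (1.19 to 1.97 and 0.816 to 1.22). The part of exon length in the channel gene results was not tested.

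**Figure D4:**
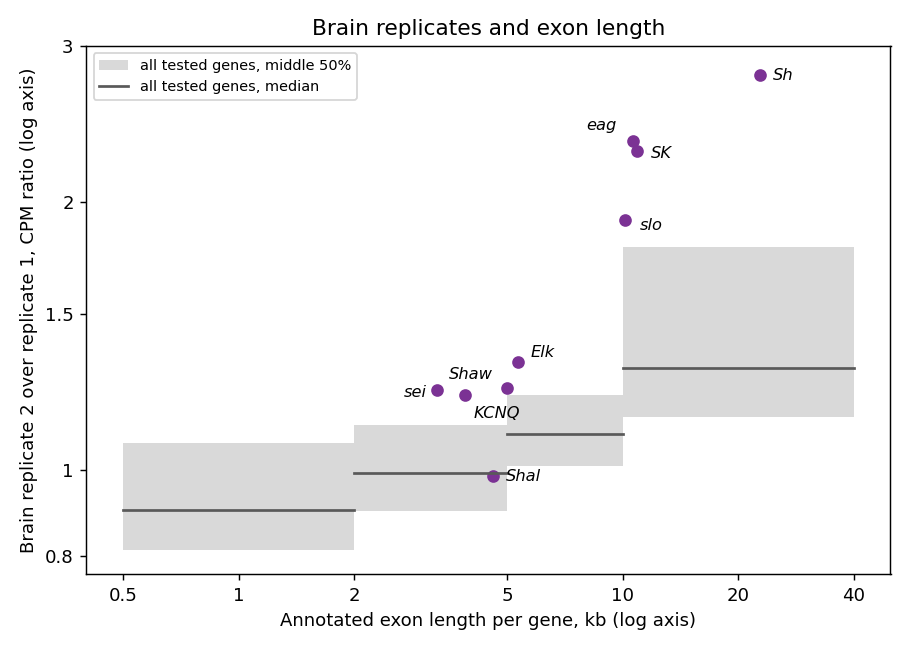
Ratio of brain replicate 2 over replicate 1 against annotated exon length for the 9 genes (points, both axes log), over the median (lines) and middle 50% (grey) of all tested genes in 4 length classes; the outer classes are open-ended. Sh, eag, SK and slo, with over 10 kb, have ratios of 1.91 to 2.78, and the other 5 genes of 0.985 to 1.32.

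The library kit does not mark strand, so reads where genes overlap on opposite strands cannot be assigned by strand. The exons of sei share 359 bases (11.0%) with gammaSnap1 and 119 bases with ppk29 (3.63%), both on the opposite strand. The level of gammaSnap1 was 12.7 and 12.3 CPM in brain, 11.9 and 12.8 CPM with 4-HT, and 10.8 and 9.73 CPM in control fat body, and it was not called in brain (log2 fold change 0.29, edgeR adjusted p = 0.147). The level of ppk29 was 0.923 and 1.66 CPM in brain, 0.0736 and 0.247 CPM with 4-HT, and 0.462 and 0.0718 CPM in control fat body, with both brain libraries above both controls. Its log2 fold change in brain was 2.41 ± 0.95 and was not called (edgeR adjusted p = 0.0577), and the part of overlapping reads in the sei values was not tested. The exons of KCNQ share 265 bases (6.84%) with CG18011 and 798 bases (20.6%) with an antisense RNA gene. The identifier of that RNA gene was not in the count table, so its level was not seen. CG18011 had 8.38 and 8.88 CPM in brain, 3.64 and 3.73 CPM with 4-HT, and 3.76 and 4.92 CPM in control fat body. It was called higher in brain (log2 fold change 0.98, edgeR adjusted p = 0.00575). Control replicate 2 was 1.31-fold above replicate 1 in CG18011 and 17.3-fold above it in KCNQ. The part of overlapping reads in the KCNQ values was not tested.

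Other channel genes place the 9 in context. Of 16 further potassium channel pore genes on the list, 13 were matched to the table and 12 tested. Of these 12, 8 were higher in brain, 2 were lower and 2 were not called, with a median log2 fold change of 4.15. Over all tested genes, 35.5% were higher in brain and 34.5% lower. Task6, a tandem-pore leak channel gene, had 32.1 and 32.2 CPM in brain, 0.110 CPM and no count with 4-HT, and 0.0660 and 0.144 CPM in control fat body. Its log2 fold change in brain was 8.09 ± 0.55 (edgeR adjusted p = 3.15e-05). Task6 passed the filter on low counts through brain alone, so its direction was fixed in advance. CG1688, Task7 and CG42594, also annotated as tandem-pore channels, rose by 6.00, 4.76 and 4.56 on the log2 scale.

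In the other direction, Ork1, an open-rectifier leak channel gene, had 0.571 and 0.532 CPM in brain, 10.4 and 9.92 CPM with 4-HT, and 12.9 and 12.0 CPM in control fat body. Ork1 was lower in brain, with a log2 fold change of -4.49 ± 0.20 (edgeR adjusted p = 6.67e-06), and was still called under library totals alone, at -2.11. The related gene sand, named after its values were seen, had 0.672 and 0.705 CPM in brain, 4.52 and 2.40 CPM with 4-HT, and 4.42 and 3.88 CPM in control fat body. Its log2 fold change was -2.58 ± 0.40 (edgeR adjusted p = 0.00120), and under library totals alone it was -0.20 and not called (adjusted p = 0.673). The inward rectifier genes Irk2 and Irk3, likewise named after their values were seen, were also called higher in brain, Irk3 by 4.50 on the log2 scale. Irk2 had 190 and 241 counts in brain and 1 in each fat body library. The ratio of scaled counts over control was 66.0 with a 95% exact counting interval of 18.2 to 547. Irk2 passed the filter through brain alone, so its direction was fixed in advance.

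Of 6 accessory genes, 3 were matched to the table. The gene qvr (sleepless), which encodes a membrane-anchored protein that binds and promotes Shaker channels, had 42.0 and 67.9 CPM in brain, 0.515 and 0.0989 CPM with 4-HT, and 0.396 and 0.323 CPM in control fat body. It was higher in brain by 7.28 ± 0.61 on the log2 scale (edgeR adjusted p = 7.22e-05), beside 7.46 for Sh itself. CG5890, annotated as a relative of mammalian Kv channel-interacting proteins, had 183 and 274 counts in brain, 0 and 2 with 4-HT, and 0 and 1 in control fat body; the ratio of scaled counts over control was 140 with a 95% exact counting interval of 25.0 to 5542. SIDL, also on the list, had 20.2 and 21.3 CPM in brain, 27.7 and 24.8 CPM with 4-HT, and 18.0 and 22.7 CPM in control fat body. Its log2 fold change in brain was 0.02 (edgeR adjusted p = 0.909), and 2.42 under library totals alone (adjusted p = 1.43e-05). Both qvr and CG5890 passed the filter through brain alone, so their direction was fixed in advance. Hk, Slob and dysc are not analysed here.

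All 12 tested genes of other voltage-gated channels and their subunits were higher in brain, under each of the 4 scalings. Their median log2 fold change was 5.54. Of all tested genes, 35.5% were called higher under TMM and 7574 of 10029 under library totals, so the latter scaling adds little. Genes near the floor in fat body, such as na below, passed the filter through brain alone, so their direction was fixed in advance. The sodium leak channel gene na had 51.1 and 62.2 CPM in brain, 0.294 and 0.297 CPM with 4-HT, and 0.396 and 0.215 CPM in control fat body. It was higher in brain by 7.62 ± 0.29 on the log2 scale (edgeR adjusted p = 4.53e-06). Among sodium channel accessory genes, Teh4, tipE and Teh2 rose by 6.20, 6.19 and 6.12. With 4-HT no gene of these 3 lists was called.

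**Figure D5:**
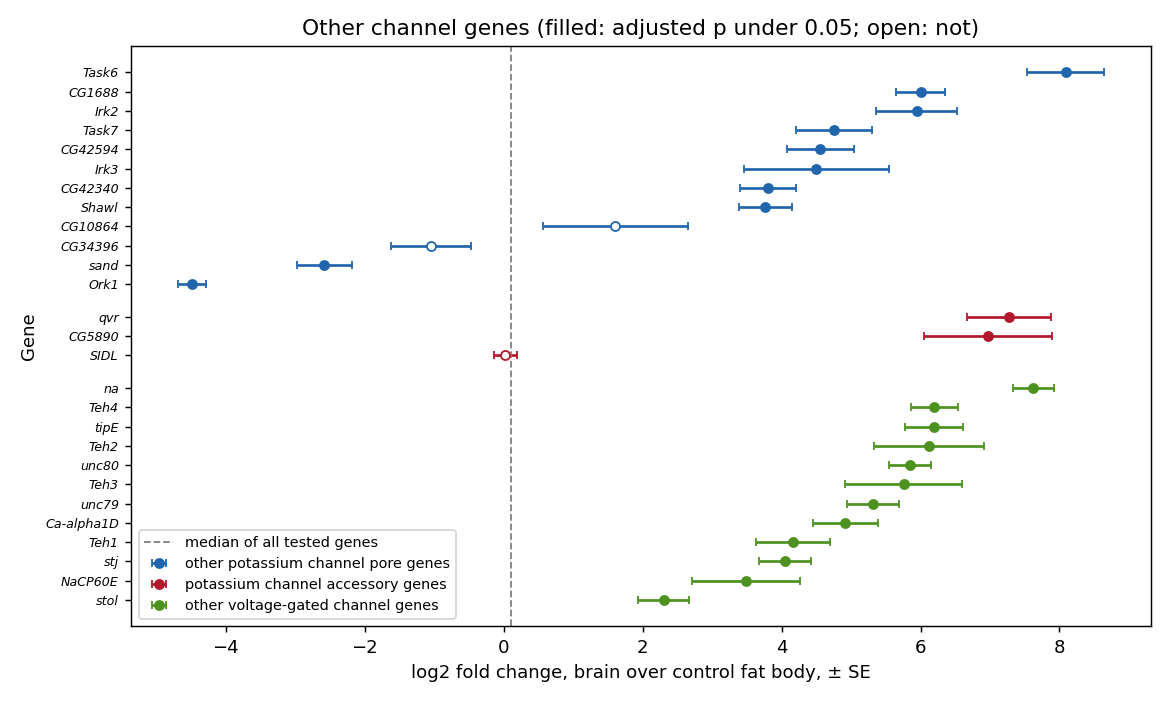
Log2 fold changes of brain over control fat body with standard errors (edgeR, n = 2 libraries per group) for the tested genes of 3 lists of other channel genes; the dashed line marks the median of all tested genes, 0.11. Ork1 and sand lie on the left at -4.49 and -2.58, and all 12 other voltage-gated channel genes lie on the right.

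For each potassium channel gene a most alike gene was sought among tested genes with a symbol, leaving out the potassium channel genes described here. It was taken as the one whose log2 CPM over the 6 libraries had the highest Pearson correlation with that channel gene. These were CG3225 for Sh (r = 0.997), krz for Shal (0.9997), CG13995 for Shaw (0.9997), GEFmeso for eag (0.993), Tbh for sei (0.9996), E(spl)mbeta-HLH for Elk (0.9996), Dpp10 for slo (0.998), alpha-Man-Ia for SK (0.996) and Rh6 for KCNQ (0.954). The 6 points share their libraries and depths, and each gene was picked as the highest of many, so the values are descriptions. How closely the potassium channel genes described here correlate with each other was not part of this choice. A high correlation does not mean an equal difference: krz had 27.9 and 27.3 CPM in brain, 14.4 and 12.5 CPM with 4-HT, and 13.6 and 14.4 CPM in control fat body, against the far wider gap of Shal. Tbh, the octopamine synthesis gene, had 6.43 and 7.36 CPM in brain, 0.221 and 0.247 CPM with 4-HT, and 0.198 and 0.359 CPM in control fat body. Rh6, a rhodopsin gene, had 0.168 and 0.0742 CPM in brain, no count with 4-HT or in control replicate 1, and 2.84 CPM in control replicate 2.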

How the data were processed

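Raw gene counts per FlyBase identifier were taken as deposited. Per the submitters' processing notes, the tools were TopHat, HTSeq and DESeq and the build dm3, with no version; the sources used here do not give the annotation release, counting mode or strand setting. Per the file headers, the authors' comparison files hold a signal (mean of counts over DESeq size factors), a ratio (fold change), its log2 value and p-values, unadjusted and adjusted.

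Symbols came from release 6 gene tables, which matched 13532 of 14869 identifiers (8 through RefSeq synonyms); of 161 genes in 16 lists, 137 were matched. Exon lengths and overlaps came from the same release, whose coordinates are not printed because the build differs. After filterByExpr, 10029 genes entered an edgeR 4.0.16 fit (TMM scaling, robust glmQLFit, R 4.3.3, limma 3.58.1) of the 6 libraries on group alone, leaving 3 residual degrees of freedom. DESeq2 1.42.0 was an alternative. The fit was also run on simulated counts in which few genes changed. Brain and fat body differed in most genes, so that run cannot speak for the brain comparison. Intervals for groups with 1 to 3 counts are 95% exact (Clopper-Pearson), and cover counting error only.

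Of each further list the text names up to 4 called genes per direction with the largest difference, provided the higher group reached 5 CPM; all members and accessory genes are named. Members and lists were chosen with earlier results of these data known. The labels do not state that replicate numbers pair samples, so numbers were not taken as pairs. Same-numbered libraries correlated at 0.188 (control and brain), -0.137 (control and 4-HT) and -0.090 (brain and 4-HT) in their deviations from group means. Replicate differences also ran with exon length, so these correlations cannot decide on pairing.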

Additional observations from a re-analysis of the deposited data

How the results depend on the processing

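The 6 genes called higher in brain kept their direction and stayed called in all 14 alternatives. Where no single library was left out, members called in brain numbered 8 under library totals alone. They numbered 7 under DESeq2, under the replicate block and under the crossed block. All of these were called higher. Over all genes, those called higher in brain numbered 7574, 3498, 3352 and 3669 in these settings, in the same order. All genes called in brain numbered 5688 to 6986 when 1 library was left out, and 6658 under the replicate block against 7018 without it. With 4-HT, genes called numbered 0, but 2 without a filter on low counts, 44 by DESeq2 (23 higher, 21 lower), 0 under the replicate block and 0 to 38 when 1 library was left out (5 without control replicate 1, 5 without control replicate 2, 20 without 4-HT replicate 1, 38 without 4-HT replicate 2). Members called with 4-HT numbered 0 in all alternatives, except 0 to 1 when 1 library was left out (KCNQ, without control replicate 1). Swapping the numbers of the 4-HT libraries, a crossed pairing added after seeing the data, gave 7274 genes in brain and 0 with 4-HT.

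In brain, eag was also called under library totals (3.72, adjusted p = 0.00130) and the crossed block (1.36, adjusted p = 0.00521), and SK under library totals (4.69, adjusted p = 0.00381) and the replicate block (2.65, adjusted p = 0.0410). KCNQ turned positive under library totals (1.05). When 1 library was left out it ranged from -2.25 (without control replicate 1) to 1.84 (without control replicate 2). With 4-HT, signs of uncalled log2 fold changes turned when 1 library was left out: Sh ranged from -0.87 to 0.81, Shal from -0.94 to 0.038, eag from -0.70 to 0.77, sei from -0.44 to 0.14 and SK from -1.91 to 2.97. Under the replicate block eag was 0.020 with 4-HT. Sh could not be fitted there with only the fat body groups, since it was filtered out. In fits without 1 library the lone sample left in a group is taken to vary as the others do. The causes of these shifts were not tested. Few counts limit the fat body values of most members, and 2 libraries per group limit all of them.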

Other observations

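Single genes with a high value in control replicate 2 were counted after KCNQ had been seen to stand out there. Of 14869 genes in the table, 10 were more than 5 times above each other fat body library in control replicate 2 (CPM with 0.2 added), and KCNQ was the third of them at 12.1 times. The others were Rh6 (15.2 times), kirre (14.8 times), CG14797, b6, Tsp29Fa, CG4676, CG18304, osk and wat. The adhesion gene kirre had 5.10 and 7.31 CPM in brain, 0.625 and 0.618 CPM with 4-HT, and 0.792 and 14.5 CPM in control fat body. The oocyte gene osk had 0.0168 and 0.0619 CPM in brain, 0.331 and 0.470 CPM with 4-HT, and 1.06 and 6.39 CPM in control fat body. The tandem-pore channel gene galene was not tested and showed the opposite, with 2 and 7 counts in brain, 0 and 2 with 4-HT, 36 in control replicate 1 and 2 in control replicate 2.

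Fat body libraries also differed in markers of other tissues. Muscle markers summed to 29.0 and 34.8 CPM in brain, 687 and 294 CPM with 4-HT, and 322 and 637 CPM in control fat body. Hemocyte markers summed to 58.2 and 52.8 CPM in brain, 142 and 172 CPM with 4-HT, and 285 and 136 CPM in controls. Eye disc markers summed to 33.3 and 30.0 CPM in brain, 70.5 and 27.9 CPM with 4-HT, and 3.43 and 2.76 CPM in controls. Their part in the channel gene values was not tested.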
